A study of Homo sapiens with 9 samples.

Results

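Clone CS19 is described by the study as 1 single-cell clone of MDA-MB-231, a human triple-negative breast cancer line, and carries the genotype label SNAI1-KO. Its 3 libraries, CS19-1 to CS19-3, were chosen by title and set against the 3 libraries of WT MDA-MB-231 cells, WT-1 to WT-3, so that 6 of the 9 libraries of the series entered the comparison. The other 3 libraries come from CS16, a second single-cell clone with the same genotype label, and served here only to show where CS19 differed from another clone. Cells of all 3 groups were untreated and kept in the same serum-containing medium with antibiotics, and total RNA depleted of ribosomal RNA was sequenced. The clones arose from transfection of Cas9, a pool of guide plasmids against SNAI1 and repair plasmids, then puromycin selection and growth from single cells, whereas the WT cells are not described as having passed these steps. The effects of the targeting, of the selection and of the founding cell cannot be told apart with 1 clone. The labels do not say whether the libraries of a group came from separate cultures, so the p-values measure the spread between these libraries, which may be technical.

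SNAI1 is a zinc finger transcription factor that represses epithelial genes such as the adhesion molecule E-cadherin. It takes part in epithelial-mesenchymal transition (EMT), the programme by which epithelial cells lose their junctions and become motile. SNAI1 and its paralog SNAI2 bind the same short stretch of DNA, an E-box that reads CAGGTG on 1 strand and CACCTG on the other, and the ZEB and TWIST factors act beside them. Basal-like breast cancer cells such as MDA-MB-231 usually express several of these factors, while luminal cells express junction genes, luminal keratins and the pioneer factor FOXA1.

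The 6 libraries held 19527195 to 28627777 counted read pairs. WT-2 stood apart from the other WT libraries: the chi-square per degree of freedom over genes was 221 and 271 between WT-2 and the other two, 16.9 between WT-1 and WT-3, and 5.32 to 18.9 between the CS19 libraries. Genes of the mitochondrial genome held 2.40% of the counts of WT-2, 0.645% and 0.795% in the other WT libraries, and 0.382% to 0.498% in CS19. Some values are therefore given without WT-2 as well. Levels below are CPM, counts per library scaled to a fixed total and adjusted across all 9 libraries by the trimmed mean of M-values, and differences are log2 fold changes ± standard error. A gene is said to have risen, fallen or been called when edgeR's quasi-likelihood test gave a Benjamini-Hochberg adjusted p below 0.05 and its log2 fold change was at least 2 in either direction.

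SNAI1 (ENSG00000124216.4, chr20:49982980-49988886, plus strand, GRCh38) was checked first because it is the gene that the label says was knocked out. It had 16, 38 and 21 counts in the WT libraries, 26, 40 and 49 in CS16 and 57, 94 and 94 in the libraries labelled CS19. The levels were 0.789, 2.17 and 1.08 CPM in WT, 1.27, 1.91 and 1.95 in CS16 and 2.59, 4.08 and 3.08 in CS19, so every CS19 library lay above every WT library. The log2 fold change against WT was 1.32 ± 0.42, edgeR quasi-likelihood adjusted p = 0.031, and without WT-2 it was 1.81. The adjusted p was above 0.05 when WT-1, WT-3, CS19-2 or CS19-3 was left out, with a largest value of 0.101 in edgeR. The counts thus go against the direction that a knockout label would give, and every direction below is that of the libraries labelled CS19. A count per gene sums all exons, so a transcript that lacks part of SNAI1 was counted like a whole one, and protein was not measured in these files.

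SNAI2, the paralog of SNAI1, moved the other way. Its levels were 35.4, 25 and 39.3 CPM in WT, 77.7, 72.8 and 70.7 in CS16 and 3.18, 5.07 and 2.62 in CS19, with no overlap between any of the groups. SNAI2 fell in CS19 against WT (log2 fold change -3.16 ± 0.32, edgeR quasi-likelihood adjusted p = 0.000144) and was also lower than in CS16 (-4.36 ± 0.16, edgeR quasi-likelihood adjusted p = 8.91e-10), while its CS16 levels lay above those of WT. Among the 11 members tested of a list of 13 EMT transcription factors, 5 rose and 2 fell, where 26.4% of all 18935 genes tested were called. Without WT-2, 7 rose and 2 fell of 12 tested. ZEB1, a repressor of E-cadherin, had levels of 131, 77.9 and 121 CPM in WT and 45.2, 49.8 and 44.4 in CS19, a log2 fold change of -1.20 ± 0.23 that was below the threshold of 2. ZEB2, its paralog, had 16.5, 15.6 and 12.9 CPM in WT and 24.2, 22.4 and 22.8 in CS19 (0.66 ± 0.19), and its adjusted p passed 0.05 when any of WT-3 and the CS19 libraries was left out. SNAI3, the third SNAI factor, had 0.789, 2.57 and 0.975 CPM in WT and 4.59, 4.03 and 3.37 in CS19 (1.51 ± 0.46, and 2.19 without WT-2), and its adjusted p went above 0.05 without CS19-1, CS19-2, WT-1 or WT-3.

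Except for FOXC1, the factors that rose were low or at 0 in WT. TWIST1, a helix-loop-helix factor of EMT, had 2, 2 and 2 counts in WT and 3.14, 2.47 and 3.01 CPM in CS19 (4.74 ± 0.36). TWIST2 and the homeobox factor GSC had no count in WT, and they reached 2.91, 2.43 and 3.24 CPM and 4.27, 6.33 and 4.39 CPM in CS19. These levels were at least 55.3-fold and at least 94.4-fold higher than a floor of 3 counts over the WT libraries. TCF4, a partner of TWIST proteins, rose from 0.296, 0.114 and 0.205 CPM to 54, 57 and 58.4 CPM (8.08 ± 0.32). FOXC1, a forkhead factor, rose from 18.4, 19.6 and 17.6 CPM to 188, 207 and 193 CPM (3.44 ± 0.18), and its CS16 levels of 129, 113.9 and 124 CPM lay between. KLF8, a zinc finger factor, went from 16, 19 and 15 counts in WT to 0, 0 and 1 in CS19. PRRX1, which had no count in CS19, and FOXC2 were too low in both groups to be tested. Of the whole list, SNAI2 was the member called against both WT and CS16.

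**Figure D1:**
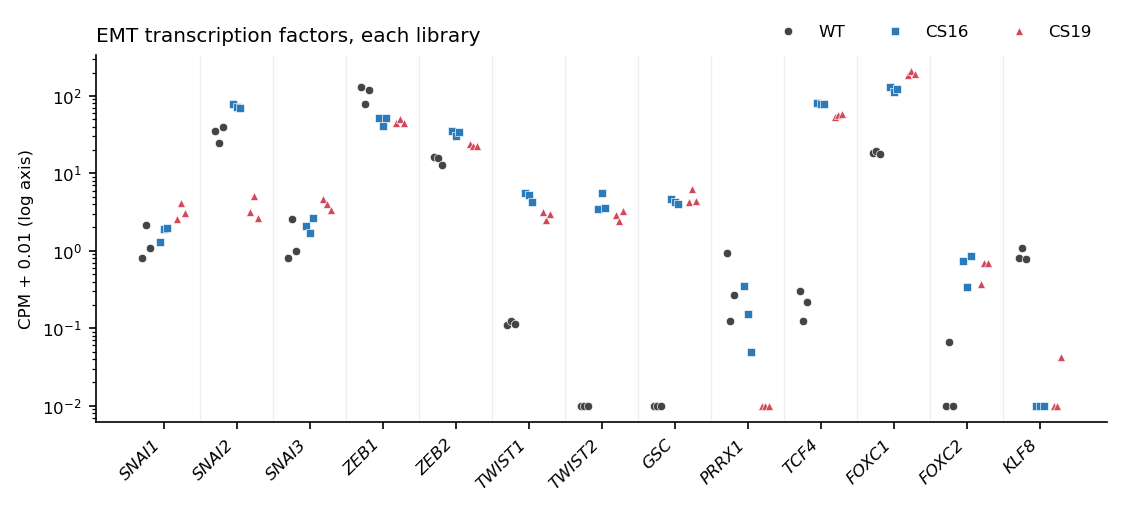
Levels of the 13 EMT transcription factors in each library (points), as CPM plus 0.01 on a log axis, coloured by WT, CS16 and CS19. SNAI2 is at 2.62 to 5.07 CPM in CS19 and at 25 to 77.7 CPM in the other 6 libraries, and SNAI1 is higher in each CS19 library than in any WT library.

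The label of the cell line was checked with genes that mark MDA-MB-231. Of 20 such markers, all tested, 19 fell in CS19 and none rose, with a median log2 fold change of -7.47, against -0.00 over all genes tested. Their summed level was 14321 to 17693 CPM in the WT libraries and 549.6 to 593 CPM in CS19. CD44, the hyaluronan receptor, was at 629.8, 791 and 572 CPM in WT and 0, 0.0867 and 0 in CS19. S100A6, a calcium-binding protein, had 90400, 48439 and 112919 counts in WT and 0, 0 and 1 in CS19. AXL, a receptor tyrosine kinase of mesenchymal-like cells, fell from 1334, 2422 and 1467 CPM to 0.182, 0.39 and 0.393 CPM (-12.32 ± 0.50). All 18 basal mammary markers tested fell as well, with a median of -5.53 and a summed level of 7277 to 8982 CPM in WT and 250.3 to 269 CPM in CS19. Without WT-2, 19 of the 20 line markers and 17 of the 18 basal markers fell.

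Genes of 9p21, the region of the tumour suppressor CDKN2A that MDA-MB-231 is known to lack, showed the reverse. Of 11 listed genes 9 were tested, 8 rose and none fell, with a summed level of 28.1 to 45.5 CPM in WT and 495 to 511 CPM in CS19. All WT libraries had 0 counts of CDKN2A, of MTAP, which salvages methionine, of KLHL9, a ubiquitin ligase adaptor, and of the RNA-binding gene ELAVL2. In CS19 the levels were 52.5, 60.8 and 51.5 CPM for CDKN2A, 99.3, 107 and 103 for MTAP, 85.2, 77.4 and 88.4 for KLHL9 and 22.7, 22.9 and 23.1 for ELAVL2. The MTAP level was at least 1967-fold and the CDKN2A level at least 1043-fold higher than the floor of WT. Exons of CDKN2A share 15.3% of their bases with exons of CDKN2B-AS1 on the other strand, and the counting ignored strand. Defining markers such as CD44, S100A6 and AXL were therefore at or near 0 in the libraries labelled CS19, although the 20 markers together kept the summed level given above, and genes without a count in WT were expressed there. The summed levels in CS16 were 581 to 603 CPM for the line markers and 487 to 509 CPM for the 9p21 genes. For the basal markers they were 192 to 203 CPM. CDKN2A and MTAP differed by -0.03 and -0.02 between CS19 and CS16 on the log2 scale. Both clones thus differed from WT in this way. Whether the cells labelled WT and CS19 share an origin was not tested, since the files hold no DNA sequence.

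Markers of other cell types moved in both directions, where 12.0% of all genes tested rose and 14.4% fell. In these bulk libraries, fewer cells of a type and less RNA per cell cannot be told apart. Of 12 embryonic kidney markers tested, 5 rose and 4 fell (7 and 2 of 13 without WT-2), and their summed level went from 84.3 to 149 CPM in WT to 264 to 306 CPM in CS19. LIN28B, an oncofetal RNA-binding protein on this list, had no count in WT and 123, 143 and 133 CPM in CS19, at least 2539-fold higher, whereas PAX8, a nephric factor, was at 12, 25.8 and 10.4 CPM in WT and 0, 0 and 0.0655 in CS19. SALL1, another kidney factor, was at 0 in WT and 15.9, 16.3 and 15.7 CPM in CS19. Of 6 neuroendocrine markers tested 4 rose and 1 fell, or 6 and 1 of 7 without WT-2 (15.02 to 16.3 CPM summed in WT, 68.9 to 75.2 in CS19). Haematopoietic markers had 2 risen and 4 fallen of 9 (31.2 to 38.9 CPM, then 14.7 to 16.3), and fibroblast and vascular markers 3 and 4 of 10 (78.0 to 150.5 CPM, then 47.7 to 51.4). Hepatocyte markers had 1 fallen of 2 tested, melanocyte markers 1 fallen of 5, and prostate markers 1 risen and 2 fallen of 5. For melanocyte markers this was 20% called, below the 26.4% of all genes tested, and lists this short say little.

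Across all genes, 2266 rose and 2724 fell in CS19 against WT, 12.0% and 14.4% of those tested, and 52.9% passed an adjusted p below 0.05 alone. Without WT-2 the counts were 2582 and 2585, and 4519 genes were called in the same direction with and without this library. Among protein-coding genes, 1652 rose and 1866 fell of 14050 tested. Among long noncoding RNAs 451 rose and 634 fell of 3345. Many calls were between absence and presence: 413 called genes had 0 counts throughout WT and 347 had 0 throughout CS19.

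Lists of mesenchymal and matrix genes moved mostly down. Of 24 mesenchymal effectors tested, 16 fell and 3 rose, with a median log2 fold change of -4.20. CDH11, the osteoblast cadherin, was at 311, 298 and 316 CPM in WT and 0, 0 and 0.0327 in CS19, and MMP14, the membrane-bound collagenase, at 484, 966 and 532 CPM in WT and 0.636, 0.737 and 1.01 in CS19 (-9.63 ± 0.46). CDH2, or N-cadherin, the cadherin usually gained in EMT, went up from 1.68, 0.343 and 1.85 CPM to 74.5, 85.3 and 88.2 CPM (6.02 ± 0.53). Matrix proteases and their inhibitors had 22 fallen and 6 risen of 40, and integrins 11 fallen and 6 risen of 21. ITGA3, a laminin receptor subunit, fell from 1341, 3227 and 1439 CPM to 12, 15 and 13.5 CPM (-7.17 ± 0.47), while ITGA4, a fibronectin receptor subunit, had no count in WT and 9.91, 9.41 and 9.88 CPM in CS19. Of 11 laminin chains 6 fell and 3 rose (4 and 3 without WT-2), with LAMB3 of the basal epithelial laminin down (-12.03 ± 0.41) and LAMA1, the embryonic chain, up (6.56 ± 0.44). Collagen chains split evenly, with 11 risen and 12 fallen of 36 and a median of -0.53 that became 0.40 without WT-2. COL1A2, a chain of fibrillar type I collagen, was at 44.7, 80.5 and 40.9 CPM in WT and at 0 in all CS19 libraries, at least 1370.0-fold lower.

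Epithelial genes also fell more often than they rose. Of 31 members of the epithelial list tested 14 fell and 4 rose, with a median of -0.72. EHF, an epithelial ETS factor, was at 229, 119.6 and 235 CPM in WT and at 0 in CS19. CLDN4, a tight junction protein, was at 129.7, 153 and 162 CPM in WT and 0.409, 0.0867 and 0.196 in CS19 (-9.28 ± 0.44). Luminal mammary markers had 11 fallen and 5 risen of 24. The keratin KRT7, of simple epithelia, was at 315, 497 and 344 CPM in WT and 0 in CS19, and TBX3, a mammary T-box factor, at 0, 0.0571 and 0 CPM in WT and 43.6, 49.5 and 44.4 in CS19.

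Signalling and immune lists were mostly lower. The interferon response and MHC class I list had 37 fallen and none risen of 48, with a median of -4.52. OAS3, an antiviral nucleotide synthetase, was at 30.9, 64.4 and 26.3 CPM in WT and 0 in CS19, and PSMB8, an immunoproteasome subunit, at 64.3, 45.2 and 75.6 CPM in WT and 0.0454, 0 and 0.0327 in CS19. Of 25 cytokines and chemokines 21 fell and none rose. The RAS-MAPK feedback list, genes whose transcription follows ERK activity, had 18 fallen and none risen of 24 (16 fallen without WT-2), with a median of -5.33. DUSP6, the ERK phosphatase, was at 155, 83 and 167 CPM in WT and 0.0454, 0.303 and 0.229 in CS19 (-9.34 ± 0.56), SPRY4, an inhibitor of receptor signalling, at 67.7, 129 and 59.7 CPM in WT and 0, 0.13 and 0.0655 in CS19, and the ETS factor ETV5 at 84.4, 63.7 and 88.9 CPM in WT and 0.182, 0.564 and 0.36 in CS19. Exons of DUSP6 share 28.6% of their bases with an exon on the other strand. YAP and TEAD targets had 21 fallen and none risen of 31, and actin and contractility genes 17 fallen and 2 risen of 39. Without WT-2 the actin list had 11 fallen, and YAP targets 19.

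HOX and neuronal genes rose more often than they fell. Of 39 HOX genes, which set position along the body axis, 35 were tested, 31 rose and none fell, with a median of 8.67. HOXD13 had no count in WT and 109, 123 and 120.2 CPM in CS19, at least 2246-fold higher, and HOXA5 had none in WT and 51.8, 49.98 and 56.2 CPM in CS19. Of 28 neuronal genes 17 rose and 6 fell, with a median of 3.56. The neurofilament gene NEFL had no count in WT and 73.7, 69.8 and 72.9 CPM in CS19. BMP7, a ligand of the TGF-beta family, had no count in WT and 58, 63.2 and 57.5 CPM in CS19, at least 1134-fold higher, in a TGF-beta list with 7 risen and 12 fallen of 42. WNT5A, a ligand of the WNT list (13 risen and 8 fallen of 42), was at 0.0493, 0 and 0 CPM in WT and 87.1, 90.6 and 98.1 in CS19. HEY1, a target of Notch receptors, rose from 0.691, 0.228 and 0.462 CPM to 212, 222 and 227 CPM (8.90 ± 0.38), in a list with 7 risen and 5 fallen of 26, or 10 risen and 5 fallen without WT-2.

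Other lists had fewer calls or were split. Cadherins had 4 risen and 2 fallen of 9 tested, stem and progenitor genes 9 and 7 of 27, and imprinted genes 2 and 5 of 16. Receptor tyrosine kinases and ligands had 13 risen and 21 fallen of 45, and nuclear receptors 9 and 3 of 36 (9 and 1 without WT-2). Targets of p53 had 4 risen and 2 fallen of 24 (25% called), glycolysis genes 5 fallen of 24 (20.8%), and AKR1C and NRF2 genes 6 fallen of 24 (25%). These shares lay below the 26.4% called of all genes tested. SLC2A1, the main glucose transporter, fell from 539, 692 and 634 CPM to 46.8, 48.2 and 45.3 CPM (-3.69 ± 0.19), and AKR1C3, a steroid-reducing enzyme, was at 193, 94.2 and 257 CPM in WT and 0 in CS19. Of the 13 protein-coding genes of the mitochondrial genome 9 fell. Without WT-2, in which MT-ND2, a subunit of complex I, stood at 1728 CPM against 102 and 90.9, 1 of the 13 fell and the median went from -3.55 to -1.48.

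Cell cycle and mitosis genes had 1 risen and 5 fallen of 42 tested, or 14.3% called, below the 26.4% of all genes tested. The D-type cyclins and their kinase were among those called. CCND1, or cyclin D1, which drives entry into the cycle, had 699, 1077 and 766 CPM in WT, 95.3, 87 and 85.2 in CS16 and 11.9, 11.7 and 10.1 in CS19, a log2 fold change of -6.20 ± 0.28, edgeR quasi-likelihood adjusted p = 5.1e-06 against WT. Its kinase partner CDK6 had 287, 183 and 262 CPM in WT, 94.3, 89.97 and 92.3 in CS16 and 22.6, 23.3 and 23.3 in CS19 (-3.36 ± 0.23 against WT, -1.99 ± 0.07 against CS16). CCND2, or cyclin D2, had 3.65, 3.08 and 2.51 CPM in WT, 163, 164 and 153 in CS16 and 64.4, 68.2 and 69.6 in CS19, so it rose against WT (4.48 ± 0.23) and lay below CS16 (-1.24 ± 0.06). The CDK6 difference from CS16 is just under the threshold of 2, and that of CCND1, -2.99 ± 0.09, is above it. Of CCND1 exons 10.4% of the bases are shared with the other strand.

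The 10 protein-coding genes that rose and had the highest CPM in CS19 had roles in metabolism, signalling and the nucleus. IRS4, an adaptor of insulin signalling, had 1, 0 and 0 counts in WT and 1250.3, 1303 and 1218 CPM in CS19, above its 714, 615 and 688 CPM in CS16 (log2 fold change 0.91 ± 0.08 against CS16). SLC16A1, a lactate transporter, rose from 0.839, 0.457 and 1.18 CPM to 692, 673 and 724 CPM (9.74 ± 0.38). SQLE, which makes the epoxide of squalene in cholesterol synthesis, rose from 28.8, 17.5 and 30.2 CPM to 576, 694 and 636 CPM (4.68 ± 0.28). The cholesterol list had 5 risen and 3 fallen of 25 tested (32% called, beside 26.4% of all genes tested). SC5D, a desaturase late in that pathway, rose from 62.5, 23.7 and 66.3 CPM to 508, 545 and 546 CPM (3.43 ± 0.40) and stood at 219, 216 and 207 CPM in CS16 (1.32 ± 0.06 against CS16). PARP1, a DNA damage sensor, was at 236, 315 and 252 CPM in WT and 1214, 1405 and 1249 in CS19 (2.31 ± 0.21). The cohesin subunit STAG2 (2.36 ± 0.30), the glycogen phosphorylase PYGL (2.21 ± 0.18) and the creatine kinase CKB (3.58 ± 0.30) rose as well. GLUL, glutamine synthetase, rose by 2.01 ± 0.24, but was under the threshold without WT-2 (1.80) and without CS19-2. The histone gene H4C5 had no count in WT and 429.5, 611 and 478 CPM in CS19, and histone genes have near-identical copies, so its counts are uncertain.

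The 10 protein-coding genes that fell and had the highest CPM in WT included S100A6 and ITGA3, given above. AHNAK, a giant scaffold protein, fell from 5262, 10453 and 3918 CPM to 168, 156 and 154 CPM (-5.33 ± 0.44). THBS1, the matrix protein thrombospondin-1, fell from 2362, 3569 and 2350.0 CPM to 2.82, 2.3 and 2.59 CPM (-10.03 ± 0.35). The linker PLEC was at 1575, 9897 and 1678 CPM in WT and 85, 74.3 and 72.1 in CS19, and its log2 fold change of -5.80 ± 0.85 was -4.38 without WT-2. The actin-sequestering TMSB4X (-6.03 ± 0.44) and the membrane-binding ANXA2 (-3.76 ± 0.25) fell too. FLNA, or filamin A, was at 3696, 10514 and 3939 CPM in WT and 1258, 1413 and 1153 in CS19 (-2.21 ± 0.44), and without WT-2 its log2 fold change of -1.56 was under the threshold. MYH9, nonmuscle myosin heavy chain, went from -2.68 ± 0.47 to -1.96 without WT-2 and was likewise no longer called.

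Against CS16, 198 of 17538 genes tested were called in CS19 (1.13%), of which 87 were higher, or 0.496%, and the rest lower, or 0.633%. Genes were taken as particular to CS19 where they were called against both WT and CS16 in the same direction, which holds for 86 of 16998 genes tested in both fits (0.506%), 51 of them higher and 35 lower. Both fits use the same CS19 libraries. Of the genes higher in CS19, 34 were also higher in CS16 than in WT by more than 1 on the log2 scale, and 17 lay within 1 of WT. Of the lower ones, 23 were also lower in CS16, 9 lay within 1 of WT and 3 were on the other side. Without WT-2, 85 of the 86 remained.

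NPNT, or nephronectin, an integrin ligand of the basement membrane, had the largest difference from CS16 of the 15 higher genes named here. It had 0.0987, 0 and 0 CPM in WT, 0.245, 0.477 and 0.676 in CS16 and 14.2, 17.4 and 14.9 in CS19, a log2 fold change of 5.00 ± 0.21, edgeR quasi-likelihood adjusted p = 4.33e-09 against CS16. Both chains COL4A3 and COL4A4 of the type IV collagen found in mature kidney basement membranes followed the same pattern. COL4A3 had 0.789, 0.571 and 0.667 CPM in WT, 0.343, 0.286 and 0.318 in CS16 and 5.41, 3.86 and 3.99 in CS19, with 2.73 ± 0.30, edgeR quasi-likelihood adjusted p = 0.000194 against WT and 3.79 ± 0.28, edgeR quasi-likelihood adjusted p = 6.9e-07 against CS16. COL4A4 had 2.02, 3.31 and 1.28 CPM in WT, 2.06, 1.62 and 1.91 in CS16 and 16.9, 19.6 and 16.2 in CS19, with 3.03 ± 0.36, edgeR quasi-likelihood adjusted p = 0.000311 against WT and 3.23 ± 0.14, edgeR quasi-likelihood adjusted p = 4.65e-09 against CS16. For both genes no CS19 library overlapped WT or CS16, which held for all 51 higher and all 35 lower genes particular to CS19. COL4A3 shares 6.82% of its exon bases with MFF-DT on the other strand. ADAMTS8, a secreted metalloprotease, was at 0.197, 0.0571 and 0.0513 CPM in WT, 0.49, 0.572 and 0.358 in CS16 and 3.77, 4.25 and 2.16 in CS19 (2.83 ± 0.33 against CS16).

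NPTX1, KIF1A and CAMK2B, all known from neurons, were among the 15 higher genes with the largest difference from CS16. The list of neuronal genes did not move with them. Of its 24 members tested against CS16, 0 were called. At an adjusted p below 0.05 alone 6 were higher and 6 lower, and the median was 0.04. SHANK2 and DPYSL3, also known from neurons, were lower in CS19 than in CS16. NPTX1, a secreted pentraxin of synapses, was at 0, 0.0571 and 0.103 CPM in WT, 5.49, 7.16 and 7.2 in CS16 and 88.4, 98 and 89.3 in CS19 (3.79 ± 0.10, edgeR quasi-likelihood adjusted p = 1.43e-10 against CS16). KIF1A, the axonal motor that carries synaptic vesicle precursors, was at 0, 0.114 and 0.154 CPM in WT, 22.5, 19.1 and 25.3 in CS16 and 221, 251 and 211 in CS19 (3.35 ± 0.10, edgeR quasi-likelihood adjusted p = 2.38e-10). CAMK2B, a calcium-dependent kinase subunit, was at 1.18, 2.46 and 1.33 CPM in WT, 0.833, 1.1 and 0.517 in CS16 and 14.1, 9.36 and 13 in CS19 (3.92 ± 0.24 against CS16). NPTX1 and KIF1A were at or near 0 in WT and intermediate in CS16, whereas CAMK2B was at 0.517 to 2.46 CPM over the WT and CS16 libraries.

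The others of these 15 included enzymes and a receptor. GLDC, the glycine decarboxylase of the glycine cleavage system, was at 0.148, 0.228 and 0 CPM in WT, 6.96, 7.54 and 8.59 in CS16 and 62, 63.3 and 59.6 in CS19 (3.00 ± 0.09, edgeR quasi-likelihood adjusted p = 2.65e-10 against CS16). WSCD1 had no count in WT, 7.2, 6.87 and 6.05 CPM in CS16 and 63.9, 69.7 and 62.5 CPM in CS19, at least 1243-fold above the WT floor and 3.29 ± 0.09 against CS16. FAAH2, a fatty acid amide hydrolase, was at 0.197, 0.114 and 0 CPM in WT, 0.833, 0.239 and 0.438 in CS16 and 5.45, 4.64 and 5.66 in CS19 (3.39 ± 0.30). EPHA10, an ephrin receptor, was at 1.04, 1.66 and 1.33 CPM in WT, 0.588, 0.716 and 1.31 in CS16 and 9.23, 8.76 and 8.28 in CS19 (3.29 ± 0.22), and PIP5K1B, a phosphoinositide kinase, at 0.0987, 0.171 and 0 CPM in WT, 0.588, 0.763 and 0.915 in CS16 and 5.09, 4.6 and 4.94 in CS19 (2.67 ± 0.22). The remaining named ones, GASK1A, TMEM178A and the phosphatase inhibitor PPP1R1A, differed from CS16 by 2.95 ± 0.16, 3.62 ± 0.32 and 2.73 ± 0.18.

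FOXA1, the luminal pioneer factor, was called against both groups as well. It had 0, 0 and 2 counts in WT, 3.09, 4.1 and 2.86 CPM in CS16 and 15.3, 18.2 and 16.2 CPM in CS19, a ratio to WT of 473-fold (95% counting interval 131 to 3909) and a log2 fold change of 2.31 ± 0.14, edgeR quasi-likelihood adjusted p = 1.03e-07 against CS16. TFAP2A, another factor of the luminal list, was lower in CS19, at 3.36, 12.2 and 2.98 CPM in WT, 6.71, 5.77 and 4.65 in CS16 and 0.773, 0.954 and 1.18 in CS19. Its log2 fold change against WT was -2.62 ± 0.61 but -1.67 without WT-2, which ends that call, and 16.8% of its exon bases are shared with the other strand. ESRRB, an orphan nuclear receptor of pluripotent cells, was at 0, 0.0571 and 0 CPM in WT, 0.931, 1.43 and 1.07 in CS16 and 5.41, 4.21 and 4.81 in CS19 (2.07 ± 0.22 against CS16, under the threshold when CS16-1 or CS19-1 was left out).

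Genes lower in CS19 than in both other groups included SNAI2 and several cell surface or signalling genes. SPOCK3, a secreted proteoglycan, was at 2.37, 0.799 and 3.18 CPM in WT and 4.22, 3.53 and 3.7 in CS16 with no count in CS19, at least 54.6-fold lower than WT and at least 95.9-fold lower than CS16. BMP2, a ligand of the TGF-beta family, was at 3.06, 2.91 and 1.85 CPM in WT, 3.09, 2.19 and 1.95 in CS16 and 0, 0.173 and 0.229 in CS19 (-4.00 ± 0.47 against CS16). FAT1, a giant atypical cadherin, was at 1527, 1512 and 1322 CPM in WT, 25.7, 21.4 and 24 in CS16 and 2.000, 1.65 and 1.6 in CS19, with -9.66 ± 0.27, edgeR quasi-likelihood adjusted p = 3.59e-06 against WT and -3.76 ± 0.13, edgeR quasi-likelihood adjusted p = 7.33e-10 against CS16. TRIB2, a pseudokinase, was at 95.2, 98.7 and 93.3 CPM in WT, 4.85, 5.06 and 3.78 in CS16 and 0.545, 0.694 and 0.393 in CS19 (-3.08 ± 0.26 against CS16). TNC, the matrix protein tenascin-C, was at 124, 218 and 117.9 CPM in WT, 2.45, 1.86 and 2.39 in CS16 and 0.318, 0.26 and 0.262 in CS19 (-2.98 ± 0.31).

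Other lower genes reached the floor in CS19. RAB32, a small GTPase of melanosome and mitochondrial traffic, was at 34.5, 14.8 and 45.6 CPM in WT, 0.833, 1.53 and 1.03 in CS16 and 0, 0.0867 and 0.0327 in CS19. SHANK2, a postsynaptic scaffold, was at 15, 62.2 and 13 CPM in WT, 1.91, 1.67 and 1.39 in CS16 and 0, 0.0434 and 0.0327 in CS19. CLCN4, a chloride-proton exchanger, was at 108, 108 and 112.97 CPM in WT, 1.42, 1.34 and 0.994 in CS16 and 0.0454, 0.0867 and 0.262 in CS19. The phosphodiesterase PDE1C (-2.98 ± 0.28 against CS16), LRATD2 (-4.16 ± 0.17) and the laminin chain LAMA2 (-2.76 ± 0.52) were lower too, and LRATD2 shares 24.6% of its exon bases with PCAT1 on the other strand.

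**Figure D2:**
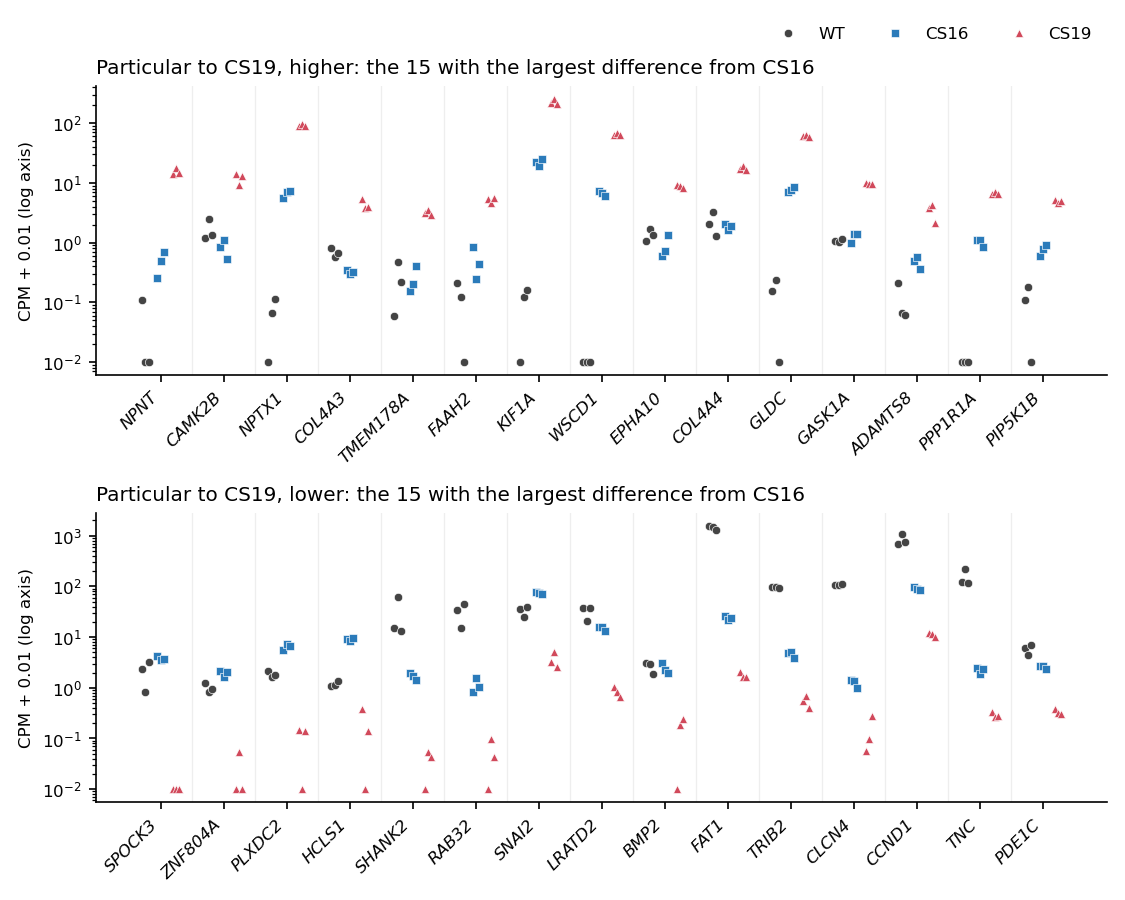
Levels in each library (points), as CPM plus 0.01 on a log axis, of the 15 genes higher (top) and the 15 lower (bottom) in CS19 than in both WT and CS16 with the largest difference from CS16. In CS19, NPNT is at 14.2 to 17.4 CPM and FAT1 at 1.60 to 2.00 CPM, outside the range of the other 6 libraries, as are all genes particular to CS19.

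Of 18935 genes tested in CS19 against WT, 10014 had an edgeR adjusted p below 0.05. In only 10 genes the clones lay on opposite sides of WT, each with an edgeR adjusted p below 0.05 in both clones. These comparisons share the WT libraries, and choosing such genes fixes a difference between the clones, so the values against CS16 are given here as a description, with no test. Higher in CS19 and lower in CS16 were COL4A3, CLIC5, CLDN1 and TTC9. CLDN1, a tight junction claudin, was at 2.02, 1.77 and 2.16 CPM in WT, 0.147, 0.191 and 0.199 in CS16 and 3.77, 2.95 and 3.08 in CS19 (0.75 ± 0.25 against WT, 4.14 ± 0.31 against CS16). Lower in CS19 and higher in CS16 were SNAI2, ZNF804A, PLXDC2, HCLS1, DPYSL3 and MID1. DPYSL3, a neuronal cytoskeleton protein, was at 4.39, 6.51 and 5.24 CPM in WT, 34, 33.9 and 34.1 in CS16 and 3.23, 2.73 and 2.55 in CS19 (-0.88 ± 0.25 against WT, -3.59 ± 0.11 against CS16). HCLS1, an actin regulator of blood cells, was at 1.09, 1.14 and 1.33 CPM in WT, 9.07, 8.3 and 9.71 in CS16 and 0.364, 0 and 0.131 in CS19, and its adjusted p against WT rose to 0.0642 without CS19-3. Several of the differences from WT were no longer below an adjusted p of 0.05 with 1 library fewer, while their log2 fold changes kept their sign. The adjusted p of DPYSL3 and MID1 went above 0.05 when any single CS19 library was left out. For CLDN1 and TTC9 it did so when any single CS19 library, WT-1 or WT-3 was left out, and for CLIC5 without CS19-1, CS19-2, WT-1 or WT-3.

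Lists were also compared between the clones at an adjusted p below 0.05 alone, where 12.7% of all genes tested were higher in CS19 and 14.7% lower. Of 22 epithelial genes tested 10 were higher and none lower. Beside CLDN1 these included GRHL1, an epithelial transcription factor, at 1.61, SPINT2, a protease inhibitor, at 1.40, LSR, a tricellular junction protein, at 1.37 and the adhesion molecule EPCAM at 1.03. CDH1, or E-cadherin, differed by 0.13, while N-cadherin, CDH2, was higher by 1.38 ± 0.08. Of 24 cholesterol synthesis genes 13 were higher and 2 lower, led by TM7SF2, a sterol reductase, at 2.02. HOX genes had 11 higher and 3 lower of 35, with HOXA5 at 1.40 ± 0.08. RAS-MAPK feedback genes had 1 higher and 8 lower of 20, and glycolysis genes 3 and 9 of 23. ENO2, the neuronal enolase, was among the glycolysis genes that were higher, at 66.5, 94.8 and 64.7 CPM in WT, 1.42, 1.53 and 1.75 in CS16 and 9.73, 9.49 and 8.41 in CS19 (2.55 ± 0.16 against CS16 and -3.00 ± 0.23 against WT).

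Promoters were searched for the E-box letters CAGGTG, or CACCTG on the other strand, in RefSeq windows of GRCh38.p14 that run from 250 bases before to 50 bases after the start of each gene, with the first listed window used where a gene has several. The search against WT was set out with the other comparisons, and the sets defined against CS16 were chosen after seeing the data. The sequences shown come from genes higher in CS19 than in both other groups and let the position of the letters be read. Capitals mark the E-box. COL4A3 and COL4A4 lie head to head, with 170 bases between their starts in the count files, and the stretch between them held no E-box:
between COL4A3 and COL4A4, chr2:227164454-227164623, plus strand: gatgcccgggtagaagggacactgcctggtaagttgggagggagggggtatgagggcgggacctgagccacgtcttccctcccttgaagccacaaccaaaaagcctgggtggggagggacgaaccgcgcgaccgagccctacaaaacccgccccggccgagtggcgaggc
The E-box of the COL4A3 window, shown with 12 bases on either side, lies beyond that stretch in an annotated first exon of COL4A4, and falls in the windows of both genes:
COL4A3, chr2:227164398-227164427, plus strand: tggatccgcgccCACCTGcccctcaggcgc
The stretches before the RefSeq starts of FOXA1, WSCD1 and SLC27A2, a fatty acid transporter, held 1, 3 and 1 E-boxes. Those of FOXA1 and WSCD1 lie inside the genes as counted, which run over chr14:37589552-37596059, minus strand, and chr17:6057807-6124427, plus strand, but outside their counted exons:
FOXA1, chr14:37595349-37595499, minus strand: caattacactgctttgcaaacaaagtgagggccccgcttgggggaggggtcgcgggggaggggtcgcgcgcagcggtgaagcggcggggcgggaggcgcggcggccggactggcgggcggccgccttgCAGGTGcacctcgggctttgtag
WSCD1, chr17:6068866-6069105, plus strand: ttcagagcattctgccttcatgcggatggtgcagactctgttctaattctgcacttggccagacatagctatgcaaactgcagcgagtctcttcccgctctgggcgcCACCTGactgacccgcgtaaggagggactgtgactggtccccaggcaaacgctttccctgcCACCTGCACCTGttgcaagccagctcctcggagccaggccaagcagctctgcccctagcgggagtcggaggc
SLC27A2, chr15:50181946-50182195, plus strand: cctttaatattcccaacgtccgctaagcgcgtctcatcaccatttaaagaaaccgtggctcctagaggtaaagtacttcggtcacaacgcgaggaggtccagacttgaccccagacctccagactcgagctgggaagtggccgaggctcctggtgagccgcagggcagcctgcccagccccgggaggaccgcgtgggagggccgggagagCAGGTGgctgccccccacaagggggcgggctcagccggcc

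Of all genes tested in CS19 against WT with a promoter in the table, 2317 of 12535 held the E-box (18.5%). The share was 21.04% among genes that rose (295 of 1402) and 19.4% among genes that fell (320 of 1646). Among genes particular to CS19 it was 21 of 35 for the higher ones, a share of 60.0%, and 1 of 27 for the lower ones (3.70%). Genes tested in both fits gave 18.2%. A promoter was found for 35 of the 51 higher and 27 of the 35 lower genes. The 21 higher genes included COL4A3, COL4A4, CAMK2B, KIF1A, GLDC, FAAH2, GASK1A, PIP5K1B, FOXA1, WSCD1, SLC27A2 and the kinase SYK, while NPNT, ESRRB and TMEM178A held none. COL4A3 and COL4A4 share 1 E-box and count as 2 of the 21. The genes were chosen by their values in these libraries and are not independent, so the shares are counts without a test.

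The shares against CS16 alone changed with the size of the difference. With an adjusted p below 0.05 alone, 24.8% of the promoters of genes higher in CS19 held the E-box (410 of 1654) and 15% of those lower (312 of 2080). For differences of 1 or more on the log2 scale the shares were 35.8% of 310 promoters and 9.43% (20 of 212), and at 2 or more they were 55.9% (33 of 59) and 5.13% (4 of 78), beside 18.2% over all genes tested. CAGCTG, an E-box with other central letters, was in 13.6% of the promoters higher by 2 or more and 20.5% of those lower, beside 16.9% of all. For CACGTG these shares were 6.78%, 3.85% and 9.95%. The median GC content was 66.0% and 61.8% in the higher and lower sets and 65.3% over all. Among genes particular to CS19, CAGCTG was in 8.57% of the higher and 29.6% of the lower promoters, beside 16.9% of genes tested in both fits. For CACGTG the shares in these sets were 8.57%, 3.70% and 9.99%. These are descriptions of letters in a fixed window, with no test, and say nothing of binding.

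**Figure D3:**
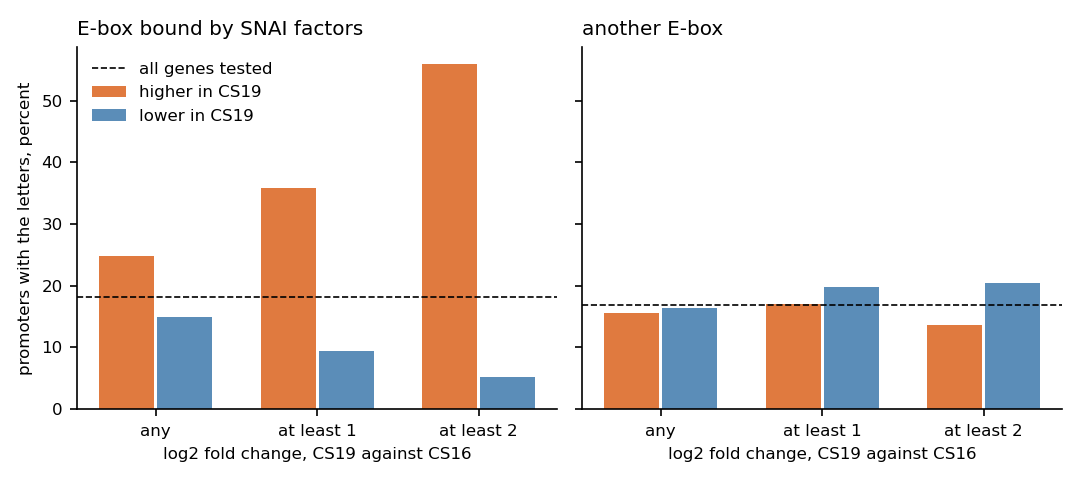
Percent of promoters that hold each E-box among genes higher and lower in CS19 than in CS16, at an adjusted p below 0.05 and 3 sizes of log2 fold change, with the share over all genes tested as a dashed line. For the E-box bound by SNAI factors the share runs from 24.8% to 55.9% in the higher genes and from 15% to 5.13% in the lower genes.

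Neighbouring genes were compared between the clones in fixed windows of 10 Mb. The medians of 271 windows had a 5th percentile of -0.46 and a 95th percentile of 0.15. The lowest were chromosome 13 from 20 to 30 Mb, with a median log2 fold change of -0.74 over 54 genes, chromosome 5 from 160 to 170 Mb at -0.69 and chromosome 5 from 150 to 160 Mb at -0.60. In the first of these, MICU2, a regulator of mitochondrial calcium uptake, was at 114.8, 63.3 and 127 CPM in WT, 34.3, 34.3 and 33.5 in CS16 and 6.14, 5.77 and 5.43 in CS19, and FLT1, a VEGF receptor, at 0.148, 0.228 and 0 CPM in WT, 30.3, 27 and 29.9 in CS16 and 8.73, 9.23 and 7.27 in CS19. In the windows of chromosome 5, HMMR, a hyaluronan-binding spindle protein, was at 24.7, 15.7 and 31.8 CPM in WT, 108, 97.2 and 98.1 in CS16 and 45.2, 50.6 and 47.9 in CS19, and PTTG1, or securin, at 193, 183 and 236 CPM in WT, 123, 119 and 121 in CS16 and 70.1, 82.8 and 76.5 in CS19. The highest windows reached 0.39, on chromosome 9 from 60 to 70 Mb.

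The shift covered whole chromosomes or large parts of them, which were picked out after the window medians were seen. On chromosome 5 the median was -0.44 over 750 genes, with 442 lower and 26 higher at an edgeR adjusted p below 0.05. On chromosome 13 it was -0.40 over 309 genes, with 141 lower and 16 higher. Its windows nearest the chromosome start had medians of -0.74, -0.45, -0.54 and -0.55, and those farther along 0.10, -0.22 and 0.04. On chromosome 6 from 120 Mb the median was -0.49 over 201 genes, of which 87.6% had a negative log2 fold change. The rest of chromosome 6 had a median of 0.04 and all 17538 genes 0.02. Lower medians were also seen on chromosome 1 in the 4 windows from 200 to 240 Mb, at -0.45 to -0.33, and on chromosome 21, at -0.13 over 191 genes, of which 67.5% had a negative log2 fold change. Each CS19 library showed the shift, with medians of -0.48, -0.45 and -0.42 on chromosome 5 relative to the CS16 mean, against -0.01 to 0.01 in the CS16 libraries. Over the same genes where also tested against WT, the medians of CS19 against WT were -0.26 on chromosome 5, 0.09 on chromosome 13 and 0.03 on chromosome 6 from 120 Mb, and those of CS16 against WT were 0.23, 0.64 and 0.48, beside 0.15 for CS19 and 0.13 for CS16 over all genes. On chromosome 13 and the end of chromosome 6 the CS16 medians were thus farther from the median of all genes than those of CS19. Over all 855 genes of chromosome 5 tested against WT, the median of CS19 was -0.46. DNA copy number was not measured, and its part in these values was not tested.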

How the data were processed

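RNA sequencing counts of 9 libraries were used, 3 each of WT, CS16 and CS19, grouped by their labels. The authors built stranded libraries from total RNA, and their methods and processing notes name Trimmomatic 0.36, STAR 2.7.2b with alignment to GRCh38.p13 and featureCounts of Subread 2.0.0. The deposited values are whole counts of read pairs per gene on gencode release 38, not normalized, kept where both ends aligned without chimeras at a mapping quality of 30 or more. The counting ignored strand, so genes that overlap on opposite strands share counts, and reads carry no molecular identifiers, so intervals and floors cover counting error only. A count of 3 corresponded to 0.105 to 0.154 CPM over the 9 libraries, and 60708 genes were listed, 60507 of them with a symbol.

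Genes were filtered with filterByExpr, normalized by TMM and tested with edgeR 4.0.16 in R 4.3.3 (quasi-likelihood test, Benjamini-Hochberg adjustment over all genes tested), separately for CS19 against WT and CS19 against CS16, with the cut-offs of the study. Its own tool, DESeq2 1.42.0, was run as an alternative. Standard errors are the log2 fold change over the root of the F statistic. Where a group had no count, the fold change is a lower bound against 3 counts over that group, and with 1 to 3 counts it is a ratio with an exact 95% interval. The fits were run on simulated counts in which 200 well-counted genes changed by a fixed size and all others stayed equal. In CS19 against WT (18935 genes) edgeR recovered 196 with 9 false calls. In CS19 against CS16 (17538 genes) it recovered 200 with 0 false calls. In the data 26.4% of genes were called against WT, many with 0 counts in a whole group. The simulations did not cover that setting.

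Members and the 39 gene lists were chosen with earlier results of these data known. Named were the EMT factors, the 10 most abundant called protein-coding genes in each direction, the 15 genes particular to CS19 with the largest difference from CS16 in each direction and a mean of at least 1 CPM, genes with opposite directions in the clones, the 4 members of each list with the largest change and those particular to CS19, and up to 5 genes of each named window. SLC27A2, SYK, GRHL1, SPINT2, LSR, EPCAM, CDH1 and TM7SF2 were named after their values were seen. The promoter alternatives and the sets against CS16 were also chosen after seeing the data. Alternatives were DESeq2, RLE and upper-quartile scaling, other filters, other fold thresholds, leaving out the 100 most abundant genes, a shared fit of 3 groups, the replicate number as a block and leaving out each library. Guide sequences, reads and single exons were not analysed here, and some genes that these rules name are not reported here.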

Additional observations from a re-analysis of the deposited data

Results flagged for a closer look

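Of 18935 genes tested in CS19 against WT, 10014 had an edgeR adjusted p below 0.05. In only 10 genes CS19 and CS16 lay on opposite sides of WT, each with an edgeR adjusted p below 0.05 against WT. The choice of these genes fixes a difference between the clones, which is given without a test. CS19 against CS16 on the log2 scale, it was -4.36 for SNAI2, 3.79 for COL4A3, -6.71 for ZNF804A, -6.05 for PLXDC2, -5.78 for HCLS1, 3.66 for CLIC5, -3.59 for DPYSL3, 4.14 for CLDN1, 1.66 for TTC9 and -1.10 for MID1. ZNF804A, a zinc finger gene, was at 1.23, 0.799 and 0.924 CPM in WT, 2.11, 1.62 and 2.07 in CS16 and 0, 0.0434 and 0 in CS19. PLXDC2, a transmembrane protein with a plexin domain, was at 2.12, 1.60 and 1.75 CPM in WT, 5.59, 7.25 and 6.6 in CS16 and 0.136, 0 and 0.131 in CS19. CLIC5, a chloride channel-like protein, was at 1.04, 0.914 and 1.18 CPM in WT, 0.196, 0 and 0.239 in CS16 and 2.18, 2.30 and 1.41 in CS19. Groups held 3 libraries, too few for a search for single outlying samples.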

How the results depend on the processing

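Genes called in CS19 against WT numbered 4990, and 7513 with no filter, 10014 by adjusted p alone and 8309 with a log2 threshold of 1. Against CS16 the 198 calls became 352, 4814 and 833 under these settings, and the 86 genes particular to CS19 became 136, 1473 and 373. DESeq2 called 6857 genes against WT, 4942 of them shared. Leaving out 1 library gave 5167 to 5743 calls against WT, 224 to 258 against CS16 and 85 to 107 particular genes. The log2 fold change of SNAI1 was 1.02 to 1.39 where its adjusted p was above 0.05 and up to 1.81 without other libraries. The median of chromosome 13 from 20 to 30 Mb was -0.63 with DESeq2 and -0.60 with no filter. Counting any promoter of a gene, the E-box share was 27.5% of genes that rose and 26.9% of genes that fell. Of genes particular to CS19 it was 62.9% (higher) and 11.1% (lower). The share over all genes was not computed in this way, so these shares cannot be set against the 18.5% above. CYP2E1, a liver enzyme, changed sign against WT with the replicate block (0.00322) and ranged from -0.48 to 0.42 (without WT-2) over the removals of a library. MT-ND6, MT-ND5 and MT-ND1 had log2 fold changes of -1.49, -1.62 and -1.68 without WT-2, and their adjusted p was above 0.05 without any CS19 library. The cause of these changes was not tested. Of 266 comparisons of named genes, 238 kept side and direction under all alternatives run, and 5 of 39 list medians changed sign under at least 1.

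Whether the replicate numbers in the titles pair the libraries was left undecided. The correlation of deviations was -0.05, 0.16 and 0.33 between CS19 and WT libraries of the same number, and -0.35 to 0.29 between those of different numbers. Between CS19 and CS16 it was -0.09, -0.39 and -0.22 for the same number and -0.25 to 0.37 for different numbers. With the replicate block, 4921 genes were called against WT and 201 against CS16. Low counts limit genes such as SNAI1, and differences below the floor of 3 counts were not detectable at this depth.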

Other observations

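Among receptors and ligands, members moved in both directions in CS19 against WT. FLT4, the receptor of lymphatic growth factors, rose from 0.0493, 0.0571 and 0.0513 CPM to 47.2, 50.7 and 43.4 CPM, while its ligand VEGFC was at 53.6, 58.4 and 54.5 CPM in WT and 0, 0 and 0.0327 in CS19. NRG1, a ligand of ERBB receptors, was at 106, 101 and 101 CPM in WT and 0.0454, 0.0867 and 0 in CS19. NT5E, the ectonucleotidase CD73, fell from 563, 402 and 619 CPM to 0.409, 0.26 and 0.295 CPM (log2 fold change -10.63 ± 0.35). IGF2BP1, an oncofetal RNA-binding protein, was at 0, 0.0571 and 0.0513 CPM in WT and 189, 228 and 191 in CS19. RXRG, a retinoid X receptor, had no count in WT, 2.89, 2.81 and 3.3 CPM in CS16 and 0.818, 1.04 and 1.15 CPM in CS19 (log2 fold change -1.56 ± 0.22 against CS16).

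Of the genes called in CS19 against CS16, 84 were not called against WT and 28 were called in the other direction against WT. ENO2 is 1 of the 28, with levels below WT and above CS16.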
